A study of Mus musculus with 12 samples.

Results

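The expression of 10 desmosome genes was followed while fibroblasts were reprogrammed to pluripotent stem cells. The genes were Dsp, Ppl and Evpl (plakins), Jup, Pkp1, Pkp2 and Pkp3 (armadillo proteins), and Dsg2, Dsc2 and Dsc3 (cadherins). They were chosen by symbol, and all 10 had a row among the 24098 genes of the deposited table. Mouse embryonic fibroblasts (MEFs) with an EGFP cassette behind the stop codon of Oct4 (Pou5f1) were infected with pMXs retroviruses for Oct4, Sox2, Klf4 and c-Myc (OSKM). D0 (day 0, labelled wild type) and D3 (day 3) were taken whole. Thy-1, a surface protein of fibroblasts, split the cells of day 6 into D6T- and D6T+ and those of day 9 into D9T- and D9T+, and SSEA-1, a carbohydrate on pluripotent cells, split day 12 into D12S+ and D12S- and day 16 into D16S+ and D16S-, where the sign gives the marker's presence. The sorts were made to separate the successful route (Thy-1-, then SSEA-1+) from the unsuccessful one. Fully reprogrammed iPSCs and the mouse embryonic stem cell line ES-D3 (mESCs) completed the 12 conditions. Whether the iPSCs were 1 clone is not given in the sources used here. Per the labels, MEFs were grown in serum medium, while reprogramming cells, iPSCs and mESCs were grown in serum replacement medium with LIF, ascorbic acid, basic fibroblast growth factor and CHIR99021, so medium and stage cannot be told apart in any comparison with D0. The study's methods name other media as well for reprogramming cells, iPSCs and mESCs, so that medium may also differ between these, and its part was not tested.

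Desmosomes are spot-like junctions that tie the intermediate filaments of neighbouring epithelial cells together. Desmogleins and desmocollins are the cadherins that bridge the gap between the cells. Plakoglobin (Jup) and the plakophilins bind their tails inside the cell, and desmoplakin (Dsp) links this plaque to keratin filaments. Periplakin (Ppl) and envoplakin (Evpl) are plakins found at desmosomes and in the cornified envelope of skin. Fibroblasts lack typical desmosomes, while epithelia and, through Dsg2, Dsc2, Pkp2, Jup and Dsp, heart muscle are rich in them.

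There were no replicates, only a single library per condition, and hence neither an SD nor a p-value is given for any difference. Levels are in FPKM, fragments scaled by transcript length and by mapped fragments, and differences are on the log2(FPKM + 1) scale, on which differences of low genes come out too small. The depth of the libraries relative to D0, estimated from low values, ranged from 0.968 in D9T+ to 1.57 in D6T-. The interval that cuffdiff gave to an FPKM was wide. Among the 95 member values of at least 1 FPKM, its median half-width was 104% of the FPKM, and the lower end was 0 for 50 of them. The 6 fibroblast markers (Thy1, Col1a1, Col1a2, Col3a1, Pdgfrb and Twist1) summed to 7114 FPKM in D0 and to between 33.3 and 55.0 in D16S+, iPSCs and mESCs. The 6 pluripotency markers (Nanog, Esrrb, Zfp42, Dppa5a, Utf1 and Tdgf1) summed to 2.11 FPKM in D0 and to between 3423 and 4674 FPKM in the same 3 libraries. D16S- lay apart from D16S+ in both, with a fibroblast sum of 427 FPKM and a pluripotency sum of 130.0 FPKM.

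Dsp and Jup had a RefSeq promoter sequence (GRCm38.p6, 250 bases before to 50 after the start), and Ppl, Evpl, Pkp1, Pkp2 and Pkp3 had none in the table used. Dsp and Jup are shown because they were the only plakin and armadillo genes with a sequence there. The promoters of the cadherin genes were not examined. The products of Dsp and Jup meet in the same plaque, and in D0 Dsp was at 0.929 FPKM and Jup at 49.3 FPKM. Capitals mark matches, on either strand, to CAGGTG (the E-box bound by Snail and Zeb factors) and to GGGCGG (Sp and Klf factors). The Dsp promoter is at chr13:38151044-38151343 on the plus strand and the Jup promoter at chr11:100397741-100398040 on the minus strand.
Dsp: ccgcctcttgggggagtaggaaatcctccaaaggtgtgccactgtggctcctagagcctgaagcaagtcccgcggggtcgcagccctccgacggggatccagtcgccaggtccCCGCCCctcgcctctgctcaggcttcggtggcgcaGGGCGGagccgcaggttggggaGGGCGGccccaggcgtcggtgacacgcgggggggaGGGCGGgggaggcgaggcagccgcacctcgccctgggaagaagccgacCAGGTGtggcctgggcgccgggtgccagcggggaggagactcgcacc
Jup: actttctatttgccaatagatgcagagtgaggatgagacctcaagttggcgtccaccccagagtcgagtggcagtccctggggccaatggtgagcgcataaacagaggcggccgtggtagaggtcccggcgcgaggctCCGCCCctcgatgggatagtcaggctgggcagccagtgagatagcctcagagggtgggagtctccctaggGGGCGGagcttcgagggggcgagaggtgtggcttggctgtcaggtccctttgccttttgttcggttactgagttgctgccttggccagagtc
Dsp held 4 matches to GGGCGG and 1 to CAGGTG, the latter from base 4 after the start, counted from 1. Jup held 2 matches to GGGCGG and 0 to CAGGTG. Neither held AACNNGTT (grainyhead-like factors) or TGANTCA (AP-1). None of these matches overlapped another. Among 32851 promoters of the same length, 35.7% held GGGCGG, 20.2% CAGGTG, 7.81% TGANTCA and 4.20% AACNNGTT. Of the Dsp promoter 73.0% was G or C, with 27 CpG sites, and of the Jup promoter 60.7%, with 14. The medians over all promoters were 52.7% and 7.

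Most desmosome genes were higher in reprogramming cells than in D0, and 7 of 9 had their highest level in a library of days 6 to 16, where 41.1% of all kept genes had theirs. The other 2 were highest in iPSCs or mESCs, like 32.1% of all kept genes. Dsc3 stayed under 1 FPKM in every library, so 9 of the 10 genes entered the counts, among 14178 genes with at least 1 FPKM in at least 1 library. At least 2-fold higher levels than in D0 were seen for 5 of 9 genes in D3, where 5.76% of all genes were that much higher. The count was 7 of 9 in D9T- (12.6% of all genes), 7 of 9 in D16S+ (20.0%, with 20.9% lower, a split of 28.2% and 14.8% at the same total FPKM), 9 of 9 in D16S- (12.8%) and 6 of 9 in iPSCs (18.7%). No gene of the 9 was at least 2-fold lower than in D0 in any of these (8.67%, 14.7%, 20.9%, 11.4% and 21.6% of all genes were). Only Jup and Pkp2 could have been, because the others were under 1 FPKM in D0 and cannot fall 2-fold on this scale. Those others were kept only through libraries where they were higher. The median log2 difference from D0 was 1.40 in D3, 2.48 in D9T-, 2.73 in D16S+, 3.11 in D16S- and 2.21 in iPSCs, beside medians over all genes between -0.02 and 0.05. These 5 comparisons share the D0 library. D16S- held the highest level of 4 of the 9 genes (Jup, Pkp3, Dsp and Ppl), beside 6.62% of all genes, while D12S+, D12S-, D6T+, iPSCs and mESCs held 1 each. Because the cells were measured in bulk, fewer cells of a type and less RNA per cell cannot be told apart.

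**Figure D1:**
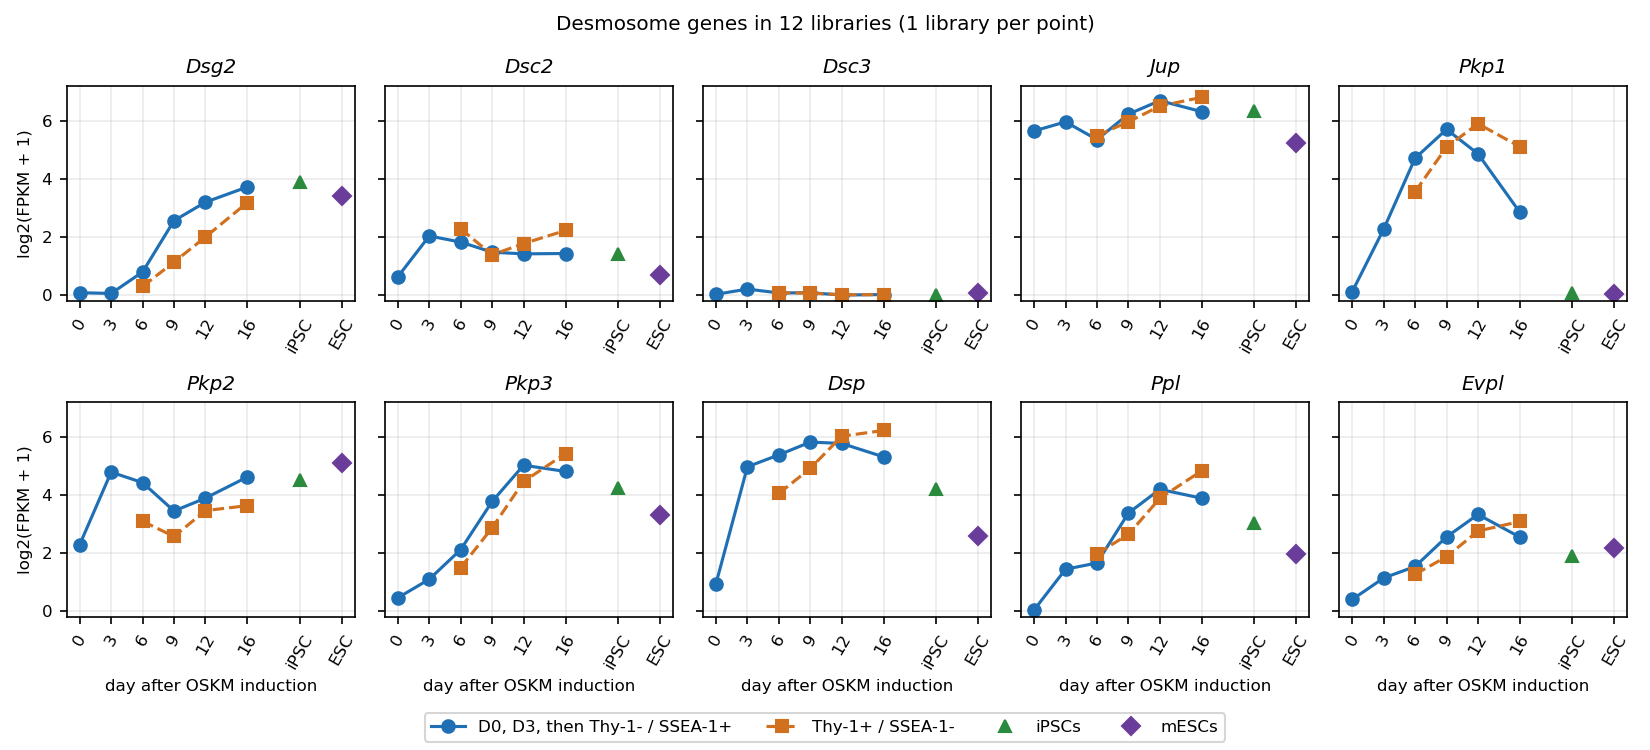
Level of each desmosome gene (log2(FPKM + 1), y axis) by day after OSKM induction (x axis), with iPSCs and mESCs at the right. Blue circles join D0, D3 and the Thy-1- or SSEA-1+ fractions, orange squares the Thy-1+ or SSEA-1- fractions, and each point is 1 library. Dsp is up by day 3, Dsg2 only from day 9, Pkp1 is high on days 6 to 12 and in D16S- and near 0 in iPSCs and mESCs, and Dsc3 is near 0 throughout.

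The plakins were described first, since Dsp joins the junction to keratin. Dsp (mm9 chromosome 13, 38243197 to 38290446, plus strand) was at 0.929 FPKM in D0, 30.4 in D3, 40.7 in D6T-, 55.6 in D9T-, 53.8 in D12S+ and 38.7 in D16S+. In the other fractions it was at 15.6 FPKM in D6T+, 29.2 in D9T+, 64.1 in D12S- and 73.6 in D16S-, and it was at 17.7 in iPSCs and 5.02 in mESCs. Dsp thus had the largest difference of the 9 genes between D3 and D0 (log2 4.02), its level was highest in SSEA-1- cells, and both pluripotent lines were below all fractions of days 9 to 16 but above D0. The intervals overlapped (0 to 2.70 FPKM in D0 and 1.78 to 59.0 in D3).

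Ppl (chromosome 16, 5086384 to 5132574, minus strand) and Evpl (chromosome 11, 116081873 to 116099391, minus strand) came later than Dsp. Ppl was at 0.0298 FPKM in D0, 1.72 in D3, 2.16 in D6T-, 9.39 in D9T-, 17.3 in D12S+ and 13.8 in D16S+. It was at 2.94 FPKM in D6T+, 5.25 in D9T+, 13.8 in D12S-, 27.5 in D16S-, 7.16 in iPSCs and 2.92 in mESCs. In the comparisons made with D0, the interval of Ppl lay apart in D9T-, D16S+ and D16S-, where 2 of 9 members each had intervals apart. D12S+ and D12S- were not compared with D0, but there the interval of Ppl (from 1.02 and 0.726 FPKM) also began above the end of that in D0 (0.112 FPKM). The share of all genes with intervals apart was not counted. Unlike Ppl, Evpl was highest in D12S+. Evpl went from 0.322 FPKM in D0 through 1.21 in D3 to 9.05 in D12S+ and 7.50 in D16S-, with 2.72 in iPSCs and 3.53 in mESCs. Within the summed FPKM of the 3 plakins, Dsp made up 91.2% in D3 and 64.1% in iPSCs, and Ppl 5.16% and 26.0%.

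Jup (chromosome 11, 100230272 to 100259077, minus strand) had the highest level of the 10 genes in fibroblasts, where Pkp2 was the other gene above 1 FPKM. Plakoglobin is also a component of adherens junctions, which fibroblasts have. Jup was at 49.3 FPKM in D0, 61.4 in D3, 39.9 in D6T-, 74.1 in D9T-, 103 in D12S+ and 78.6 in D16S+. The other libraries had 44.0 FPKM (D6T+), 61.5 (D9T+), 90.1 (D12S-), 111 (D16S-), 79.1 (iPSCs) and 36.7 (mESCs). Its whole range was 1.58 on the log2 scale, the smallest of the 9 genes, against 5.86 for Pkp1. As a result the ratio of Dsp to Jup in FPKM went from 0.0188 in D0 to 1.02 in D6T-, and was 0.223 in iPSCs and 0.137 in mESCs.

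The plakophilins, which cluster the cadherins and recruit desmoplakin, differed in when they were highest. Pkp1, the main plakophilin of the upper layers of skin (chromosome 1, 137767972 to 137815784, minus strand), was at 0.0844 FPKM in D0, 3.83 in D3, 25.3 in D6T-, 51.2 in D9T-, 28.1 in D12S+ and 6.19 in D16S+. It was at 10.8 FPKM in D6T+, 33.2 in D9T+, 58.8 in D12S-, 33.5 in D16S-, 0.0386 in iPSCs and 0.0307 in mESCs. Thus iPSCs and mESCs were at or below the level of the starting fibroblasts, and all 9 libraries from day 3 to day 16 were above it. The intervals of Pkp1 in D9T- (2.87 to 99.5 FPKM) and in D0 (0 to 0.302 FPKM) lay apart, as did those in iPSCs and D16S-, where the levels were 33.2-fold apart on the log2(FPKM + 1) scale.

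Pkp2, the plakophilin of simple epithelia and heart (chromosome 16, 16213411 to 16272805, plus strand), was also higher in D3 than in D0 but, unlike Pkp1, was lower in both fractions of day 9 than in D3 and was expressed in both pluripotent lines. It was at 3.89 FPKM in D0, 26.6 in D3, 20.5 in D6T-, 9.91 in D9T-, 13.9 in D12S+ and 23.6 in D16S+. In Thy-1+ and SSEA-1- cells it was at 7.54 FPKM (D6T+), 4.95 (D9T+), 10.0 (D12S-) and 11.4 (D16S-), and it was at 21.6 in iPSCs and 33.1 in mESCs. Pkp2 was the only plakophilin with its highest level in a pluripotent line.

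Pkp3, a plakophilin of most epithelia (chromosome 7, 148264117 to 148276409, plus strand), came last. It was at 0.375 FPKM in D0, 1.14 in D3, 3.35 in D6T-, 12.7 in D9T-, 31.6 in D12S+ and 27.1 in D16S+. It was at 1.82 FPKM in D6T+, 6.31 in D9T+, 21.1 in D12S-, 41.9 in D16S-, 17.7 in iPSCs and 8.82 in mESCs. Of the summed FPKM of the 3 plakophilins, Pkp2 was 89.5% in D0 and 84.3% in D3, and Pkp1 was 69.4% in D9T- and 74.7% in D9T+. On day 16 Pkp3 had a like share in both fractions, 47.6% in D16S+ and 48.3% in D16S-. The remainder differed between them, with Pkp2 at 41.5% and Pkp1 at 10.9% in D16S+ against 13.1% and 38.6% in D16S-. In iPSCs Pkp2 was 54.9%, Pkp3 45.0% and Pkp1 0.0979%. A share within a library does not change when the library is rescaled.

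**Figure D2:**
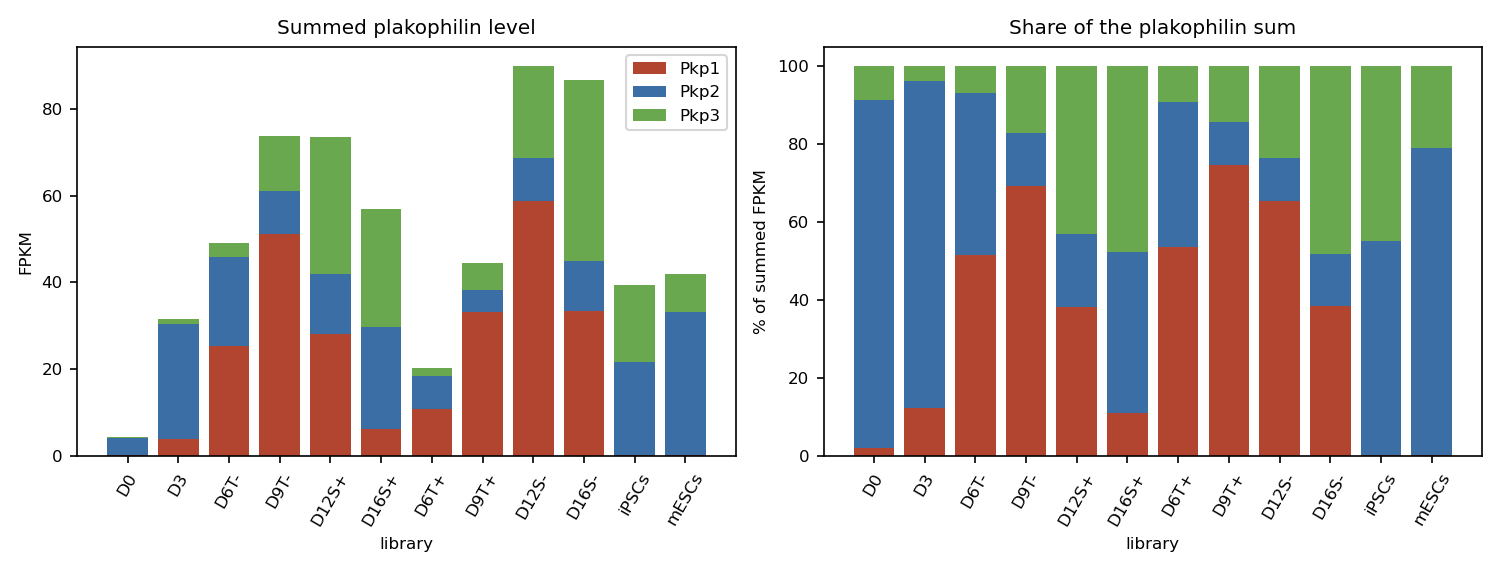
Summed FPKM of Pkp1, Pkp2 and Pkp3 (left, y axis in FPKM) and the share of each in that sum (right, y axis in %) in each of the 12 libraries (x axis, 1 library each). Pkp2 dominates in D0 and D3, Pkp1 in D9T-, D9T+ and D12S-, and Pkp1 is at 10.9% in D16S+, 38.6% in D16S- and 0.0979% in iPSCs.

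The cadherin genes share 1 cluster on chromosome 18, with Dsc3 (20119431 to 20160598) and Dsc2 (20189134 to 20218055) on the minus strand and Dsg2 (20716575 to 20763022) on the plus strand. Dsg2, the desmoglein of simple epithelia, was at 0.0573 FPKM in D0, 0.0384 in D3, 0.735 in D6T-, 4.90 in D9T-, 8.18 in D12S+ and 12.2 in D16S+. It was at 0.228 FPKM in D6T+, 1.20 in D9T+, 3.00 in D12S-, 8.11 in D16S-, 13.9 in iPSCs and 9.62 in mESCs. Dsg2 was the only one of the 9 genes not above D0 on day 3 and the only one highest in iPSCs. On each of the 4 sorted days it was higher in the fraction of the successful route, as was Pkp2 (log2 differences 1.33, 0.88, 0.43 and 0.99). On day 6 Dsg2 was under 1 FPKM in both fractions. The share of all genes with that direction on all 4 days was not counted. The intervals of Dsg2 in D16S+ (0.394 to 24.0 FPKM) and in iPSCs lay apart from that in D0.

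Dsc2, the widely expressed desmocollin, had a range of 1.65 on the log2(FPKM + 1) scale, which makes differences of such low values too small. With a pseudocount of 0.1, its difference between D3 and D0 was 2.31 in place of 1.41. All intervals of Dsc2 began at 0. Dsc2 was at 0.547 FPKM in D0, 3.10 in D3, 2.54 in D6T-, 1.78 in D9T-, 1.67 in D12S+ and 1.70 FPKM in both D16S+ and iPSCs. It was at 3.86 FPKM in D6T+, 1.61 in D9T+, 2.42 in D12S-, 3.67 in D16S- and 0.624 in mESCs. Hence Dsg2 made up 1.17% of the summed cadherin FPKM in D3 and 89.1% in iPSCs. Dsc3, a desmocollin of stratified epithelia, did not exceed 0.153 FPKM (D3) and was listed at 0 in D12S+.

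Next, both fractions of a day were set against each other, to see whether the desmosome genes differed between the routes. On day 6, Dsp (log2 difference 1.33), Pkp2 (1.33) and Pkp1 (1.16) were at least 2-fold higher in D6T- than in D6T+, 3 of 9 genes beside 2.93% of all genes. Dsc2, Jup and Ppl were lower in D6T-, none by 2-fold (9.47% of all genes were). On day 9 all 9 genes were higher in D9T- than in D9T+, but only Dsg2 by at least 2-fold (1.43), beside 1.81% of all genes. None was lower by 2-fold (6.45% of all genes were). When the libraries were set to an equal total of FPKM, the count on day 9 was 3, beside 2.59% of all genes. The median was 0.50 on day 6 and 0.73 on day 9, beside medians over all genes of 0.005 and 0.016. The share of all genes above 0 was not counted.

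For the SSEA-1 sort, on day 12, 6 of 9 genes were higher in D12S+ than in D12S-, with Dsg2 at least 2-fold higher (1.20, beside 4.79% of all genes) and Pkp1 at least 2-fold lower (-1.04, beside 3.03%). At the same total FPKM, Pkp1 was no longer 2-fold lower. On day 16, 7 of 9 genes were lower in D16S+ than in D16S-, and Dsg2 (0.54) and Pkp2 (0.99) were the exceptions. Pkp1 was the only gene past 2-fold (-2.26, 4.80-fold), a count of 1 of 9 beside 15.2% of all genes that were at least 2-fold lower. Pkp2 just missed 2-fold in the other direction, where 11.8% of all genes stood, and passed it under both other scalings and with a pseudocount of 0.1. The median was 0.31 on day 12 and -0.61 on day 16, the latter at the lower quartile of all genes, also -0.61. The medians over all genes were -0.012 on day 12 and -0.021 on day 16, and the share of all genes on either side of 0 was not counted. The intervals of all 9 genes overlapped between the fractions on all 4 days, and the share of all genes with such overlap was not counted. The day 6 and day 9 cells were sorted on another marker than those of days 12 and 16, and the effects of marker and of day cannot be told apart.

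**Figure D3:**
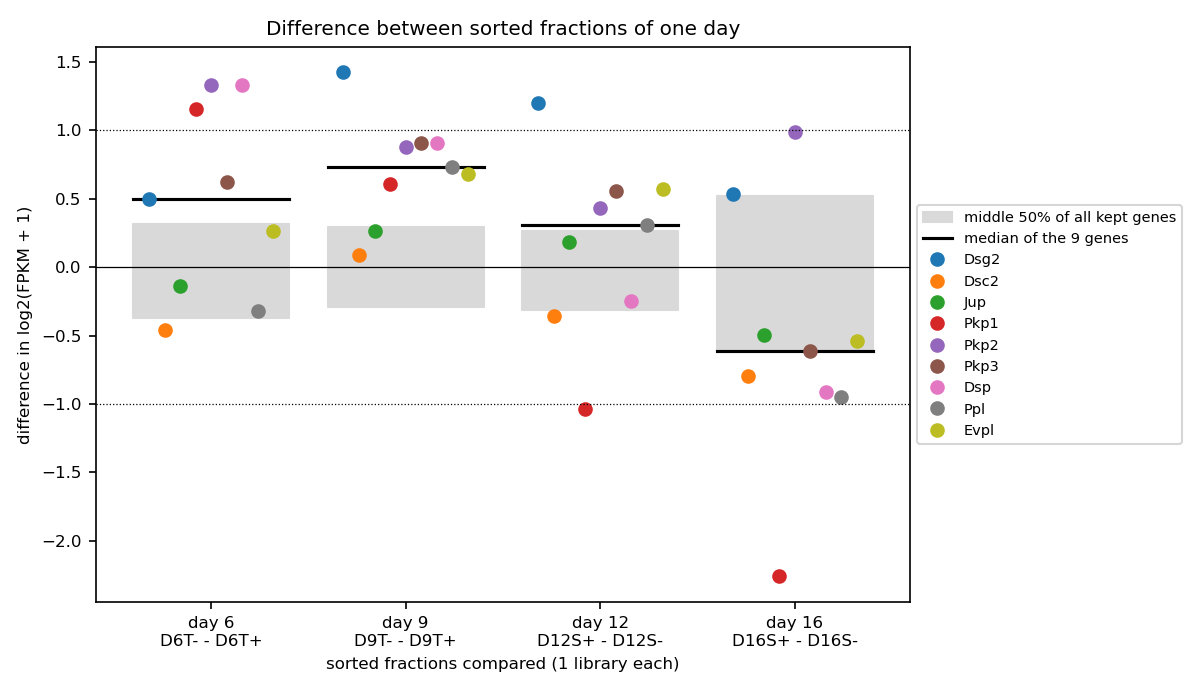
Difference in log2(FPKM + 1) between the sorted fractions of one day (y axis) for 9 desmosome genes (coloured points) on 4 days (x axis, 1 library per fraction), with the median of the 9 genes (black line) and the middle 50% of all 14178 genes (grey). Dotted lines mark 2-fold. All 9 points are above 0 on day 9 and 7 of 9 are below 0 on day 16, where Pkp1 is at -2.26. The grey range spans 0 on each day.

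Finally, the pluripotent lines were compared with the late stages. In iPSCs, Pkp1 (-2.79) and Dsp (-1.09) were at least 2-fold lower than in D16S+, 2 of 9 genes beside 7.77% of all genes, and 0 of 9 were 2-fold higher (4.38%). Against D16S-, 5 of 9 genes were at least 2-fold lower in iPSCs, namely Pkp1 (-5.05), Dsp (-2.00), Ppl (-1.81), Pkp3 (-1.20) and Evpl (-1.19), beside 19.0% of all genes, and 0 of 9 were 2-fold higher (14.7%). Dsg2 (0.71) and Pkp2 (0.87) were higher in iPSCs. Between the pluripotent lines, Dsp (1.63), Jup (1.09) and Ppl (1.06) were at least 2-fold higher in iPSCs than in mESCs, 3 of 9 genes beside 6.79% of all genes, and 0 of 9 were 2-fold lower (7.41%). Markers of simple epithelium were also higher in iPSCs, where the 6 of them (Cdh1, Epcam, Cldn4, Krt8, Krt18 and Esrp1) summed to 1665 FPKM against 305 FPKM in mESCs and 1478 in D16S-. Most of the sum in iPSCs and D16S- was Krt8 (483 and 543 FPKM) and Krt18 (711 and 664), which were at 26.7 and 36.5 in mESCs. In iPSCs, 4 of the 6 were at least 2-fold higher than in mESCs, but not Cdh1 (0.57) and Epcam (0.66). The part of these markers in the difference of the desmosome genes was not tested.

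Over the 12 libraries the 9 genes did not follow 1 course. Of 36 pairs, 32 had a positive Pearson correlation of log2(FPKM + 1), with a median of 0.53. These correlations are descriptive, since all genes share the same 12 libraries, and the same was not counted for pairs of all kept genes. All members but Jup and Pkp2 were under 1 FPKM in D0 and kept only through libraries where they were higher. A shared low value in D0 can thus favour positive correlations. The closest pairs were Pkp3 with Ppl (0.95), Pkp3 with Evpl (0.95) and Ppl with Evpl (0.95), and the farthest were Pkp1 with Pkp2 (-0.29) and Dsg2 with Dsc2 (-0.19). Pkp1 was closest to Dsp (0.82). Among 10797 other genes with at least 5 FPKM in at least 1 library, the nearest profile to Pkp3 was that of Lad1 (0.99), which encodes ladinin, an epithelial anchoring filament protein. The nearest to Dsg2 was Kdf1 (0.99), a keratinocyte differentiation factor, to Pkp1 Clic3 (0.99), to Dsp Podxl (0.97), which encodes the membrane sialomucin podocalyxin, and to Ppl Stap2 (0.97). Evpl was nearest to Tmem102 (0.97), Jup to Peg3 (0.94), Pkp2 to Nudcd1 (0.92) and Dsc2 to Suox (0.88). The mean profile of the 9 genes was nearest to Krt19 (0.96), a keratin of simple epithelia, followed by Sytl1 (0.95), Mpzl2 (0.95), Tmem102 (0.95) and Tmem184a (0.94).

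Other desmosome genes fell into a silent and an expressed group. Of 10 further genes, the desmogleins and desmocollin of stratified epithelia (Dsg1a, Dsg1b, Dsg1c, Dsg3, Dsg4 and Dsc1) were below 1 FPKM in every library, with 0.278 FPKM for Dsg3 in D16S- as the highest value. Dsg1a, Dsg1b and Dsg1c are close copies, and since reads at more than 1 locus were removed, their values are uncertain. Of the 4 expressed genes, 3 were at least 2-fold higher in D16S+ than in D0 (20.0% of all genes were). Perp, a tetraspan protein of desmosomes, was at 2.28 FPKM in D0, 126 in D3, 38.7 in D16S+, 99.2 in D16S- and 35.7 in iPSCs, so that like Dsp it was high by day 3. Cdsn, the corneodesmosin of skin, was at 0.127 FPKM in D0, 6.98 in D16S+, 20.3 in D16S- and 1.08 in iPSCs. Kazn, whose product kazrin binds periplakin, was at 2.05 FPKM in D0 and 33.3 in D16S+. Pkp4, a relative of the plakophilins that is also found at adherens junctions, was at 13.9 FPKM in D0 and within 2-fold of it in D16S+.

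Genes of the filaments that desmosomes anchor were counted in the same way. Of 10 intermediate filament genes, 7 were at least 2-fold higher and 2 lower in D16S+ than in D0 (20.0% and 20.9% of all genes), and 8 were higher and 1 lower in D16S- (12.8% and 11.4%). Krt8 and Krt18, the keratin pair of simple epithelia, were at 4.22 and 56.5 FPKM in D0, 149 and 259 in D16S+, 543 and 664 in D16S-, and 483 and 711 in iPSCs. Of the keratins of stratified epithelia in this list, Krt14 was at 0.0609 FPKM in D0, 8.24 in D16S+ and 39.9 in D16S-. Krt17 was at 0.101 FPKM in D0 and, unlike Krt14, within 2-fold between D16S+ (28.3) and D16S- (39.6). Krt6a did not exceed 5.23 FPKM (D9T-) and Krt5 did not exceed 1.64 FPKM. Vim, the vimentin of fibroblasts, was at 3641 FPKM in D0, 188 in D16S+, 2267 in D16S- and 128 in iPSCs. D16S- thus had the highest Dsp, Jup, Pkp3 and Ppl and a Vim level within 2-fold of D0. Vim was also at 2953 FPKM in D6T+, 2569 in D9T+ and 2108 in D12S-. The 6 fibroblast markers, which do not include Vim, were all at least 2-fold lower in D16S- than in D0 (median log2 difference -3.87). Whether the same cells held Vim and the desmosome genes cannot be told in bulk RNA. The 5 keratinocyte markers (Krt5, Krt14, Trp63, Krt15 and Col17a1) summed to 43.2 FPKM in D16S-, nearly all of it Krt14, and to 9.47 in D16S+. The 5 leukocyte markers (Ptprc, Cd52, Laptm5, Cd68 and Tyrobp) summed to 174 FPKM in D16S-, 81.6 in D16S+ and 100 in mESCs. In each, 2 of 5 (Laptm5 and Cd68) were at 1 FPKM or more. In D16S-, Laptm5 was at 57.3 FPKM and Cd68 at 115, while Ptprc was at 0.0269, Cd52 at 0.265 and Tyrobp at 0.897. The part of either cell type in the levels of the desmosome genes was not tested.

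Of 10 adherens junction genes, 4 were at least 2-fold higher and 3 lower in D16S+ than in D0, where 20.0% and 20.9% of all genes were, with Cdh1 (E-cadherin) at 0.150 FPKM in D0, 130 in D16S+ and 44.6 in D16S-, and Ctnnb1 (beta-catenin, the close relative of Jup) between 199 and 283 FPKM in all 12 libraries. Cdh1 was at least 2-fold higher in D16S+ than in D16S- (log2 difference 1.52), as were 11.8% of all genes. Of the 9 desmosome genes, none was 2-fold higher there and Pkp1 alone was 2-fold lower, beside 15.2% of all genes. Among 11 regulators of epithelial and mesenchymal identity with enough expression, 6 were at least 2-fold higher and 5 lower in D16S+ than in D0 (20.0% and 20.9% of all genes). Grhl2 and Esrp1, which promote epithelial identity, were at 11.9 and 32.7 FPKM in D16S+ and at 2.18 and 5.31 in D16S-. Of the other epithelial regulators, Grhl3 (log2 difference 0.71) and Ovol2 (0.75) were higher and Grhl1 (-0.16) and Ovol1 (-0.39) lower in D16S+ than in D16S-. Snai1, a repressor that binds the E-box, was at 57.5 FPKM in D0, 14.4 in D3, 4.52 in D16S+, 21.3 in D16S- and 19.2 in iPSCs. The other mesenchymal regulators of the list, Zeb1 (-1.42), Zeb2 (-1.88), Snai2 (-0.37) and Twist1 (-2.36), were also lower in D16S+ than in D16S-. Trp63, a regulator of stratified epithelia, did not exceed 0.653 FPKM.

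**Figure D4:**
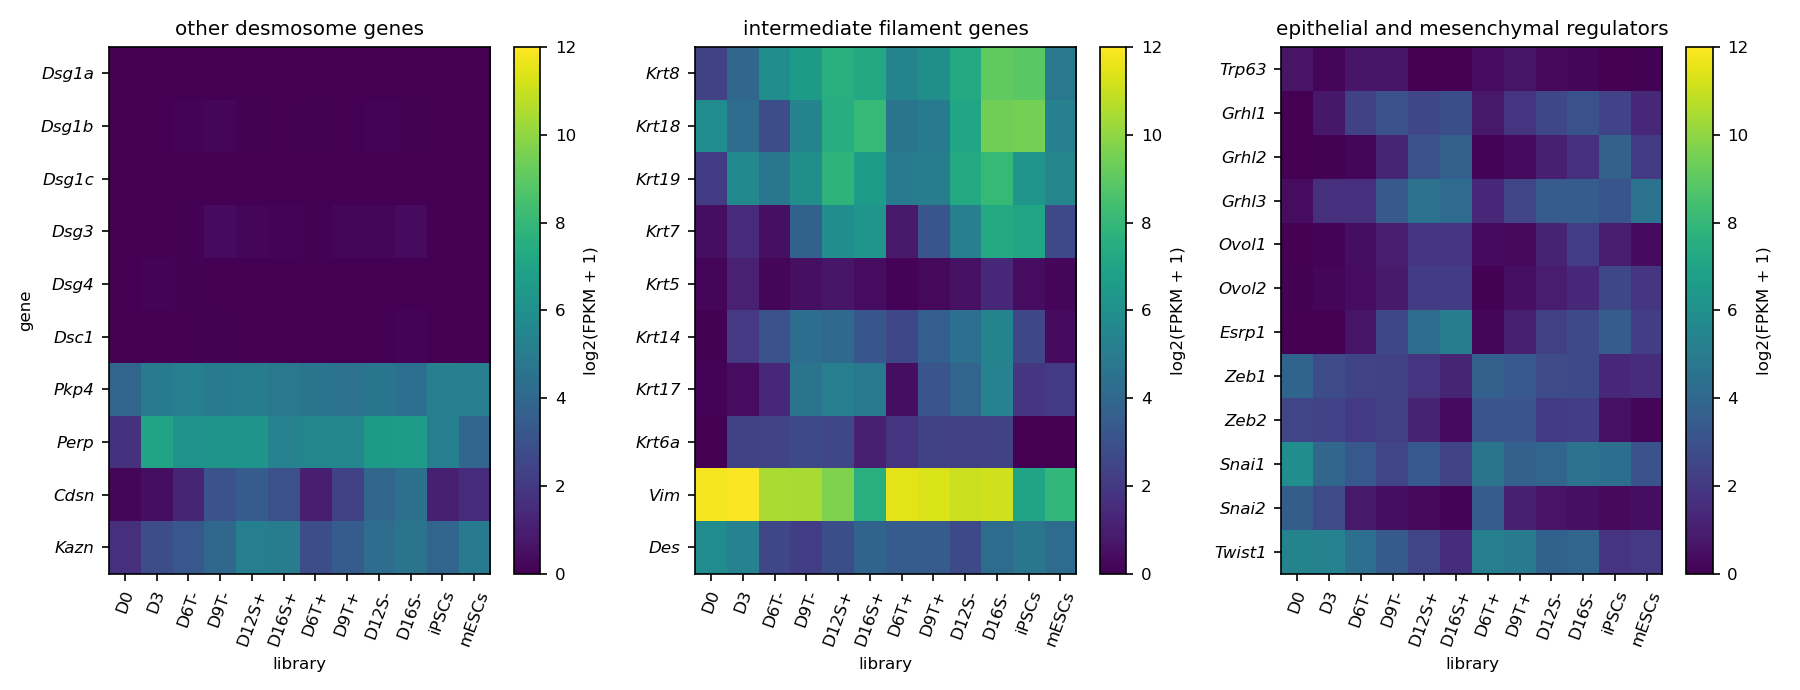
Level (colour, log2(FPKM + 1)) of 10 other desmosome genes, 10 intermediate filament genes and 12 regulators of epithelial and mesenchymal identity (rows) in the 12 libraries (columns, 1 library each). The desmogleins 1, 3 and 4 and Dsc1 are dark throughout, Perp is bright from D3 on, and Krt8 and Krt18 are brightest in D16S- and iPSCs.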

How the data were processed

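The labels name a stranded mRNA kit and the methods an unstranded one, so the use of strand in counting is unknown. The authors mapped reads to mm9 with STAR, removing reads with more than 2 mismatches and reads at more than 1 locus. Cuffdiff then gave the FPKM that were deposited, each with an interval. The annotation, tool versions and scaling between libraries are not given in the sources used here, and the confidence level of the interval is not stated. Total fragments are not given, so absolute depth is unknown. Relative depth is the most common ratio of values under 0.5 FPKM. A further 12 columns of status words, OK for all 120 member values, were not used otherwise.

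Each column was assigned by its day and its marker sign (pos or neg). FPKM as deposited were analysed as log2(FPKM + 1) in Python 3.11.15 with pandas 2.3.3. Genes with at least 1 FPKM in at least 1 library were kept. 12 pairs of libraries were compared by a 2-fold threshold without a test. The scripts were tested on simulated data. Alternatives were a pseudocount of 0.1, the same total FPKM, median-of-ratios scaling, no filter and a 4-fold threshold. The members and gene lists were chosen with earlier results of these data known. Named genes are the members, the listed genes and the nearest profiles by Pearson correlation. Gene positions are from GENCODE M1 (mm9, 1-based). All 10 members overlapped their locus in the table.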

Additional observations from a re-analysis of the deposited data

Results flagged for a closer look

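The difference between the SSEA-1 fractions had opposite signs on the 2 days for 2 of the 9 genes, each by at least 0.5 on the log2 scale, beside 44 of 14178 kept genes (0.310%). Pkp3 was higher in D12S+ than in D12S- by 0.56 and differed by -0.61 between D16S+ and D16S-. Evpl was higher in D12S+ by 0.57 and differed by -0.54 on day 16. At the same total FPKM, the day 16 difference of Evpl was -0.446, under the limit of 0.5, and that of Pkp3 was -0.503, just past it. The count over all kept genes was not repeated at that scaling. With 1 library per fraction, no test of a difference between days 12 and 16 was possible, and the intervals overlapped on both days.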

How the results depend on the processing

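Of the recomputed counts and medians, 149 stayed within the margins (1.5-fold for a count, 0.5 for a median), 19 moved and none changed direction. With a pseudocount of 0.1, the median difference from D0 was 2.31 in D3, 4.75 in D9T-, 5.09 in D16S+, 5.70 in D16S- and 2.74 in iPSCs. Between D16S+ and D16S- there was then 1 gene higher and 2 lower (17.4% and 21.5% of all genes). At the same total FPKM, 3 genes were higher in D9T- than in D9T+ (2.59% of all genes) and 0 lower in D12S+ than in D12S- (2.63%). In D16S+, 1 was higher than in D16S- (14.0%), as with the median of ratios (1, beside 12.0%). The same total FPKM moved the median over all genes from 0.05 to 0.35 between D16S+ and D0. Higher genes were then 28.2% and lower genes 14.8% in place of 20.0% and 20.9%. At a threshold of 4-fold, 3 genes were higher in D3 than in D0 (1.52% of all genes). In D6T-, D9T- and D12S+, 0 were higher than in the other fraction of the day (0.289%, 0.113% and 0.903%). In D12S+ 0 were lower (0.0846%). In iPSCs 1 was lower than in D16S+ (1.72%) and 1 than in D16S- (7.52%), and 0 were higher than in mESCs (1.23%). The counts of 0 are near these low shares. A smaller pseudocount weighs low values more, and the cause of the other changes was not tested. For single genes, 286 values stayed within 0.5 and the 38 that moved, all with the pseudocount of 0.1, did not reverse. No paired analysis was possible because each condition has 1 library, and for the same reason no library could be left out. Wide intervals limit all members, since those of 50 of 95 values of at least 1 FPKM reached 0.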

Other observations

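Genes of hemidesmosomes, which anchor the same filaments to the basement membrane, and of the cornified envelope showed values that stand beside those of the desmosome genes. Itgb4, the integrin subunit of hemidesmosomes, was at 1.53 FPKM in D0, 27.9 in D3, 27.4 in D16S+, 185 in D16S- and 9.42 in iPSCs, and its highest level was 211 in D12S-. Its partner Itga6 ranged from 10.2 FPKM in D9T- to 24.3 in D6T+, and Col17a1, another hemidesmosome gene, did not exceed 2.27 FPKM. Plec, the plakin shared with hemidesmosomes, was at 140 FPKM in D0, 22.6 in D16S+ and 83.7 in D16S-. Of the 8 genes of this list, 0 were at least 2-fold higher and 3 lower in D16S+ than in D16S- (11.8% and 15.2% of all genes).

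Of 6 cornified envelope genes with enough expression, 0 were at least 2-fold higher and 5 lower in D16S+ than in D16S- (11.8% and 15.2% of all genes). Cnfn (cornifelin) was listed at 0 in D0 and was at 40.7 FPKM in D3, 6.33 in D16S+, 37.2 in D16S- and 0.113 in iPSCs. Tgm1, a transglutaminase that builds the envelope, was at 13.8 FPKM in D16S+, 62.9 in D16S- and 37.0 in iPSCs. Ivl (involucrin) and Sprr1a, envelope proteins, were already at 6.70 and 42.4 FPKM in D0, and were at 0.462 and 16.1 FPKM in D16S+ and 3.91 and 36.3 FPKM in D16S-. Sfn, which encodes the 14-3-3 protein sigma of epithelia, was at 6.79 FPKM in D0, 176 in D16S+ and 194 in D16S-. Sprr1b, a further envelope gene, had its highest level, 15.5 FPKM, in D6T+. Lor and Krt10 were below 1 FPKM in every library.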
